A study of Rattus norvegicus with 6 samples.

Results

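The Id family holds Id1, Id2, Id3 and Id4, the inhibitors of DNA binding, and all 4 genes were found among the 13355 genes measured on arrays of rat oligodendrocyte progenitor cells (OPCs). The members were chosen by symbol, and both they and the gene lists used below were chosen with earlier results of these data known. Each had 1 probe set with a single gene symbol and a value on every array, and no probe set shared with another gene. OPCs are the dividing glial cells that mature into the myelin-forming oligodendrocytes of the brain. Per the labels' protocols, the cells were primary cultures from rat pups of postnatal day 1 to 2, kept for 2 days in proliferation medium with PDGF and NT3. The fibrinogen group (3 arrays) then received fibrinogen, the clot-forming protein of blood plasma, for 48 h in differentiation medium. The control group (3 arrays) is labelled unstimulated with the same 48 h, and its medium is not stated. Strain, dose and whether the arrays of a group came from separate cultures or animals are not stated either, so the p-values measure only the spread between these samples, which may be technical. The series title asks whether fibrinogen activates bone morphogenetic protein (BMP) signaling in OPCs.

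Id proteins are helix-loop-helix (HLH) proteins that lack the basic region by which other HLH transcription factors contact DNA. They pair with the E proteins, the common partners of lineage-determining basic HLH factors, and keep them from binding DNA. BMP ligands act through receptor kinases and SMAD proteins and are classic inducers of Id transcription. In OPCs, Id2 and Id4 are known for holding back oligodendrocyte maturation, and BMP treatment of these cells is known to favour an astrocyte-like fate.

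The promoters of Id1 and Id4 are shown because Id1 was the member that passed the test, while Id4 was the member whose promoter window held the palindrome GGCGCC, a sequence that SMAD proteins of the BMP branch bind. All 4 members matched RefSeq's promoter table, which covers 250 bases before to 50 bases after a gene's start (build GRCr8). The Id1 window lies at chr3:161671314-161671613 (plus strand) and the Id4 window at chr17:16598244-16598543 (minus strand). Capitals mark the motif matches, and both sequences are written 5′ to 3′ on the gene's strand.
Id1: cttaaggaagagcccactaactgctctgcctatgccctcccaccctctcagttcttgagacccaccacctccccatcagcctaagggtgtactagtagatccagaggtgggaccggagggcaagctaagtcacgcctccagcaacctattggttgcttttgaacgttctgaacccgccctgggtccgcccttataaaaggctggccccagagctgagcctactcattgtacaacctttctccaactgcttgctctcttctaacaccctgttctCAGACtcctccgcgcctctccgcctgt
Id4: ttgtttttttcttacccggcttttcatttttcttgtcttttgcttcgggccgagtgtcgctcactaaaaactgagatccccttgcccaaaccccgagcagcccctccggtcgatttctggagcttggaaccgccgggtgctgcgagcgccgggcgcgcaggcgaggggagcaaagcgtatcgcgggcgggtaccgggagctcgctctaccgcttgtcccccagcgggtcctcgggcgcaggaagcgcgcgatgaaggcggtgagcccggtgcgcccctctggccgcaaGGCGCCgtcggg
Of the 4 motifs searched on both strands, CAGAC (another SMAD-bound sequence) occurred 1 time, in Id1, beginning at base 274 of the window. GGCGCC occurred 1 time, in Id4, beginning at base 289. Both matches therefore lie after the gene's start, and they did not overlap another motif. The 50 bases after the start in the Id4 window open with the start codon atg and hold no stop codon in that frame. The GGCGCC match in Id4 thus lies in what reads as protein-coding sequence, and is not shown to be a promoter site. Neither TGACG (bound by ATF and CREB proteins) nor GTGGGCG (bound by EGR proteins) was found in any Id window, and the Id2 and Id3 windows held no match to any of the 4. Among all 33469 promoter windows of the table, 50.1% hold CAGAC, 11% hold GGCGCC, 21.2% hold TGACG and 7.12% hold GTGGGCG. These matches describe letters in a short window and say nothing on whether a factor is bound.

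Id1 was higher with fibrinogen on every array, and it was the Id gene that passed the test. Values are log2 expression as deposited, normalized between arrays. Id1 (probe set 10840890) stood at 7.47, 7.68 and 7.68 on control arrays 1, 2 and 3 and at 8.14, 8.16 and 8.28 on fibrinogen arrays 1, 2 and 3. The groups did not overlap: the lowest fibrinogen array lay 0.46 above the highest control array, more than the range within either group (0.21 and 0.14). The log2 fold change was 0.58 (SE 0.09, 95% interval 0.37 to 0.80), a 1.5-fold rise, with an adjusted p of 0.0120 in limma over all genes. The same test called 7.16% of all genes, 4.16% higher and 3.00% lower (555 and 401 genes), or 434 higher and 516 lower with each array centred on its median. Centring lowers every log2 fold change by the same amount, since the fibrinogen array medians all lay above the control ones. Removing fibrinogen 3 ended the call of Id1 (adjusted p = 0.0539), as did testing without variance moderation (0.0529), while its log2 fold change stayed between 0.51 and 0.62 with any one array left out.

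**Figure D1:**
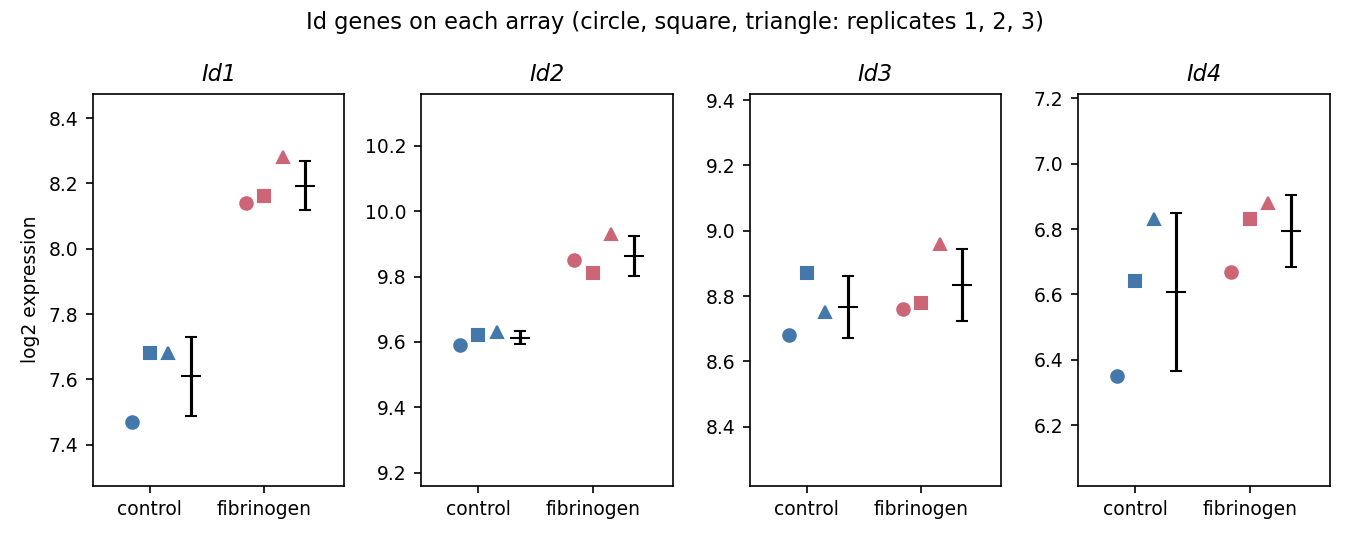
Log2 expression (vertical axis, each panel spanning the same number of log2 units) of Id1, Id2, Id3 and Id4 on the 3 control (blue) and 3 fibrinogen (red) arrays, with the mean and SD of each group in black. Every fibrinogen array lies above every control array for Id1 and Id2, while the groups overlap for Id3 and Id4.

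Id2 also separated the groups, by a smaller amount and with a narrower spread, and did not pass the test. Id2 (10889379) was at 9.59, 9.62 and 9.63 on control arrays 1 to 3 and at 9.85, 9.81 and 9.93 on fibrinogen arrays 1 to 3. The control arrays lay within 0.04 of each other, and the gap to the lowest fibrinogen array was 0.18. The log2 fold change was 0.25 (SE 0.07, 95% interval 0.08 to 0.42), 1.19-fold, with an adjusted p of 0.0917 in limma. This call depended on which genes were tested and on the variance model. The adjusted p was 0.0478 without the dimmest 25% of genes, 0.0196 without genes below the median brightness and 0.00468 with a variance prior that follows brightness (eBayes with trend and robust). It was 0.145 with each array centred on its median.

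Id3 and Id4 overlapped between the groups. Id3 (10872972) was at 8.68, 8.87 and 8.75 on control arrays 1 to 3 and at 8.76, 8.78 and 8.96 on fibrinogen arrays 1 to 3. Control 2 was above both fibrinogen 1 and fibrinogen 2, and the log2 fold change was 0.07 (95% interval -0.15 to 0.28, adjusted p = 0.743 in limma). Without fibrinogen 3 it was 0.003, without control 1 0.02 and without control 2 0.12; without fibrinogen 1 it was 0.10. Id4 (10797722) was at 6.35, 6.64 and 6.83 on control arrays 1 to 3 and at 6.67, 6.83 and 6.88 on fibrinogen arrays 1 to 3. Its control arrays spread over 0.48, the widest range of the family in either group, and control 3 equalled fibrinogen 2. The log2 fold change of Id4 was 0.19 (95% interval -0.12 to 0.50, adjusted p = 0.488 in limma), with values of 0.06 without control 1 and 0.30 without control 3. The intervals of both genes reach above 0.25, the value of Id2, and that of Id3 lies wholly below the Id1 interval.

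Over the family, 1 of 4 genes passed the test, and the groups did not overlap, with fibrinogen higher, for 2 of 4. The test called 4.16% of all genes higher. Groups did not overlap for 27.0% of all genes, and for 15.0% with fibrinogen higher. Among genes of similar brightness to a member (defined below), the share with fibrinogen higher was larger, from 20.1% (Id4) to 23.1% (Id2). All 4 log2 fold changes were positive, also with each array centred on its median and after quantile normalization, where that of Id3 was 0.02 and 0.04. Positive changes made up 50.3% of all genes tested. The 4 genes shared an order of arrays within the groups: control 1 was the lowest control array and fibrinogen 3 the highest fibrinogen array for each of them. That order held for 14.5% of all genes (1938 of 13355). On control 1 the 4 genes stood between 0.02 (Id2) and 0.26 (Id4) below their control means, and on fibrinogen 3 between 0.07 (Id2) and 0.13 (Id3) above their fibrinogen means.

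The members were then set against genes of similar brightness, meaning those whose mean over the 6 arrays lay within 0.5 log2 units. Probe brightness depends on the probe as well as on the transcript, so the members' levels were not compared with each other. Id1 had 1961 such genes, and its log2 fold change exceeded that of 96.6% of them (95% of them lay below 0.48). Of these genes, 7.34% were called higher and 4.64% lower. Id2 had 728 genes of similar brightness, as one of the brighter probe sets (above 93.6% of all valued probes), and exceeded 91.6% of them. In that window 5.22% of genes were called higher, and the smallest called rise was 0.31. For Id2 the SD over control arrays was 0.02, smaller than for all but 7.28% of these genes.

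Id3 and Id4 lay closer to the middle of their windows. Id3 exceeded 63.3% of 1508 genes, a value that ranged from 50.6% without fibrinogen 3 to 70.4% without fibrinogen 1. Id4 exceeded 74.1% of 2028 genes, from 56.9% without control 1 to 84.1% without control 3. The spread of Id4 was large for its brightness: its SD over control arrays of 0.24 was above that of 86.1% of these genes. With a window of 0.25 or 1 log2 units in place of 0.5, the percentile was 96.3 and 96.7 for Id1, 92.2 and 91.0 for Id2, 63.0 and 61.7 for Id3, and 75.5 and 74.3 for Id4.

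**Figure D2:**
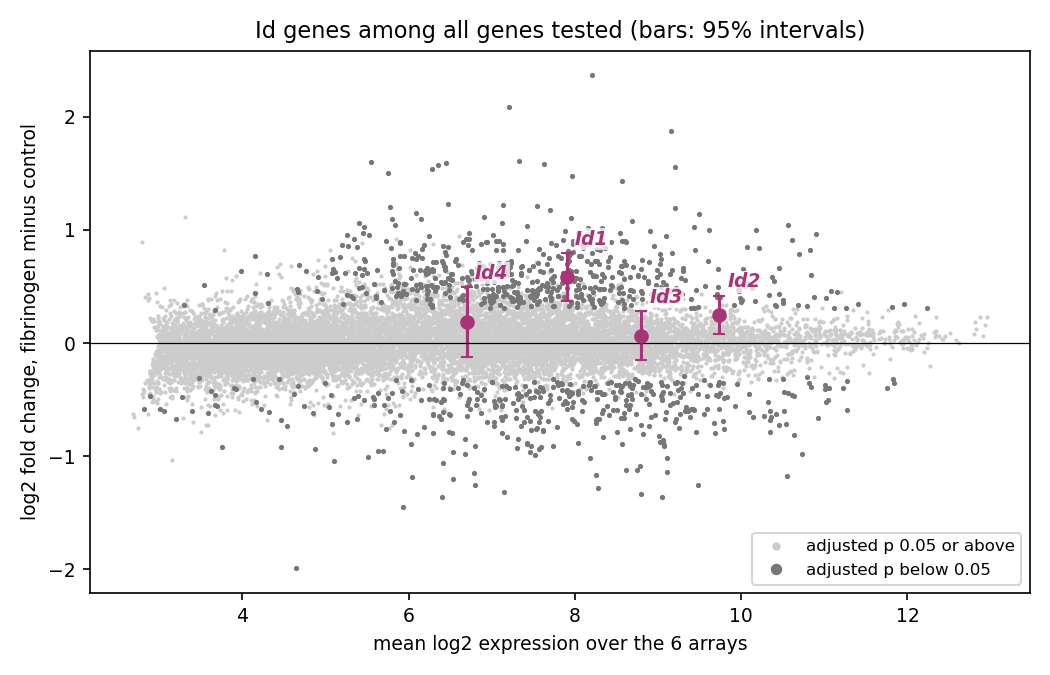
Log2 fold change (fibrinogen minus control) against mean log2 expression over the 6 arrays for all 13355 genes, with genes past an adjusted p of 0.05 in dark grey and the Id genes in purple with 95% intervals. Id1, at 0.58, lies among the called genes, and the interval of Id2 stays above 0 while those of Id3 and Id4 cross it.

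Whether the members changed by unequal amounts was tested on the difference between 2 members on the same array, which no shift of a whole array can move. Relative to each other member, Id1 stood higher on all 3 fibrinogen arrays than on any control array. Id1 minus Id3 was -1.21, -1.19 and -1.07 on control arrays 1 to 3 and -0.62, -0.62 and -0.68 on fibrinogen arrays 1 to 3, a difference of 0.52 between group means. Id1 minus Id2 went from -2.0 ± 0.10 to -1.67 ± 0.03 (SD, n = 3), and Id1 minus Id4 from 1.00 ± 0.14 to 1.40 ± 0.07 (SD, n = 3). These are differences of 0.33 and 0.40. Id2 minus Id3 also separated the groups, by 0.18. None of these 4 pairs overlapped between the groups, and each had a two-sided exact permutation p of 0.1, the smallest that 3 arrays against 3 can give (0.15 adjusted over the 6 pairs). Id2 minus Id4 and Id3 minus Id4 overlapped, with differences of 0.06 and -0.12 (exact permutation p = 0.8 and 0.5). With 0.1 as the floor, no pair could pass 0.05.

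**Figure D3:**
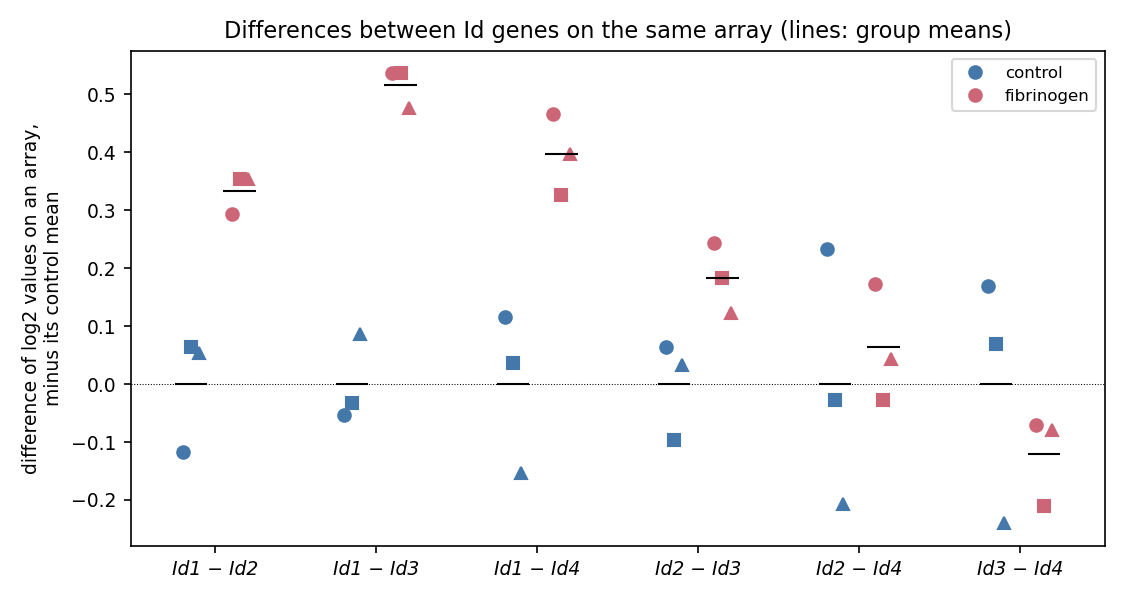
Difference of log2 values between 2 Id genes on the same array, minus the control mean of that pair (vertical axis), for the 6 pairs on control (blue) and fibrinogen (red) arrays; circles, squares and triangles are replicates 1, 2 and 3, and black lines are group means. The groups stand apart for the 3 pairs with Id1 and for Id2 with Id3, with means apart by 0.18 to 0.52, and overlap for the other pairs.

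The genes most like each member were found by the root mean square difference between log2 profiles over the 6 arrays, each centred on its own mean. The nearest to Id1 were Cdkn2c (an inhibitor of the G1 kinases CDK4 and CDK6, at 0.029), Cenpk (a kinetochore protein, 0.042) and Bora (an activator of the mitotic kinase Aurora A, 0.043). Cdkn2c ran 7.93, 8.10 and 8.13 on control arrays 1 to 3 and 8.54, 8.65 and 8.72 on fibrinogen arrays 1 to 3, also a log2 fold change of 0.58. Id2 was nearest to Dnajc10 (an endoplasmic reticulum reductase, 0.018), Rasa3 (a Ras-inactivating protein, 0.019) and Rrm2 (a subunit of ribonucleotide reductase, 0.020). Id3 was nearest to Mrpl35 (a mitochondrial ribosomal protein), Tars1 (threonyl-tRNA synthetase) and Ppp1r1c (an inhibitor of protein phosphatase 1), at 0.017 to 0.021. Id4 was nearest to Pyurf, Tst (thiosulfate sulfurtransferase) and Ddx59 (an RNA helicase), at 0.040 to 0.051. The other Id genes were not among the nearest to Id1, although closer to it than most of the 13355 genes. Id2, Id4 and Id3 ranked 861, 1595 and 3157 in likeness to it. In the other direction, Id1 ranked 5957, 6246 and 10963 in likeness to Id2, Id4 and Id3. Such likeness over 6 arrays of 2 groups is a description.

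Among the partners of Id proteins, the 3 E protein genes were not called in limma, where 7.16% of all genes were called in either direction. The E protein genes included 1 at an unadjusted p under 0.05 (Tcf3). Their median log2 fold change was 0.07, against 0.00 over all genes. It was 0.002 without control 1 and 0.02 with each array centred on its median. The all-gene median was not computed for these settings, and centring lowers it by the same amount, so they are not set against the 0.00. Tcf3 was at 8.01, 8.0 and 8.0 on control arrays 1 to 3 and at 8.23, 8.12 and 8.27 on fibrinogen arrays 1 to 3. Its log2 fold change of 0.20 (95% interval 0.03 to 0.38, adjusted p = 0.169 in limma) did not pass, although the groups did not overlap. Tcf12 and Tcf4 were at 0.07 and -0.01 (95% intervals -0.13 to 0.26 and -0.17 to 0.16). Of 19 measured basic HLH lineage factors, 1 rose and none fell, a share near the 4.16% of all genes called higher, and 16 had a control mean below the median probe (5.81). The gene that rose was Olig1, which promotes oligodendrocyte development, at 10.83, 10.82 and 10.90 on control and 11.32, 11.27 and 11.35 on fibrinogen arrays 1 to 3 (adjusted p = 0.0118 in limma). That call was lost without fibrinogen 1 or fibrinogen 3 (adjusted p = 0.0560 and 0.0542).

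Among 15 measured genes for other Id-binding proteins and for regulators of Id protein stability, 1 rose and none fell, again a share near the 4.16% of all genes. Cav1 (caveolin 1, a membrane protein reported to bind Id1) was at 9.49, 9.93 and 9.96 on control and 10.68, 10.70 and 10.53 on fibrinogen arrays 1 to 3, a log2 fold change of 0.84 (adjusted p = 0.0144 in limma). The call of Cav1 was lost without fibrinogen 1 or fibrinogen 2 (adjusted p = 0.0669 and 0.0619). Usp1, the deubiquitinase that stabilizes Id proteins, and Fzr1, the adaptor that directs Id2 to degradation, were at 0.22 and 0.15 (adjusted p = 0.308 and 0.413); both were chosen after their values were seen. Of 6 measured CDK inhibitor genes, a class that E proteins induce and Id proteins can hold down, 1 rose and 1 fell, where 7.16% of all genes were called. Cdkn1c (p57) fell by 0.59, from 9.72, 9.80 and 9.67 on control to 9.03, 9.25 and 9.14 on fibrinogen arrays 1 to 3 (adjusted p = 0.00997 in limma). Cdkn2c (p18) rose (adjusted p = 0.0119 in limma), a call lost without fibrinogen 2 or fibrinogen 3 (adjusted p = 0.0547 and 0.0533).

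Calls among the BMP pathway genes upstream of the Id genes went both ways. Of 8 measured ligand genes, 2 fell and none rose, where 3.00% of all genes were called lower. The median was -0.10 and was -0.004 without control 1. Of the 8 ligand genes, 7 had a control mean below the median probe (5.81), Bmp2 among them and Bmp4 not. Bmp2 was at 5.27, 5.27 and 5.49 on control and 4.28, 4.23 and 4.70 on fibrinogen arrays 1 to 3, and Bmp4 at 10.26, 10.38 and 10.32 against 9.89, 9.86 and 9.87. Bmp2 missed the threshold once fibrinogen 1 was removed (adjusted p = 0.0536), and Bmp4 once control 3 or a fibrinogen array was removed (adjusted p = 0.0521 to 0.0616). Of 9 receptor and co-receptor genes, 1 rose and 1 fell (median 0.13), where 7.16% of all genes were called in either direction. These were the co-receptors Rgma, at 7.29, 7.43 and 7.44 on control and 8.12, 7.79 and 8.20 on fibrinogen arrays 1 to 3, and Hjv (hemojuvelin), at 4.6, 4.58 and 4.63 against 4.21, 4.29 and 4.36. Rgma held its call when fibrinogen 2 was removed and in no other such fit, and Hjv held it in none (adjusted p of up to 0.0924 and 0.161). Of the 9 receptor and co-receptor genes, 3 had a control mean below the median probe, Hjv among them and Rgma not.

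The 4 SMAD transducer genes were not called in limma, where 7.16% of all genes were called in either direction. Of these 4, 0 had an unadjusted p under 0.05. Smad9 was at 0.19 (95% interval -0.01 to 0.39) and Smad4, the common partner, at -0.13 (95% interval -0.33 to 0.06). None of 11 measured pathway inhibitor genes was called either, with 1 (Fst) at an unadjusted p under 0.05 in limma. Of the 11, 7 had a control mean below the median probe. At a share of 7.16% lists this short can lack calls, so their absence is no result about these genes. Fst (follistatin, which binds activin and BMP ligands) was at 0.46 (adjusted p = 0.0710) and Bambi, a decoy receptor, at -0.25 (adjusted p = 0.262).

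**Figure D4:**
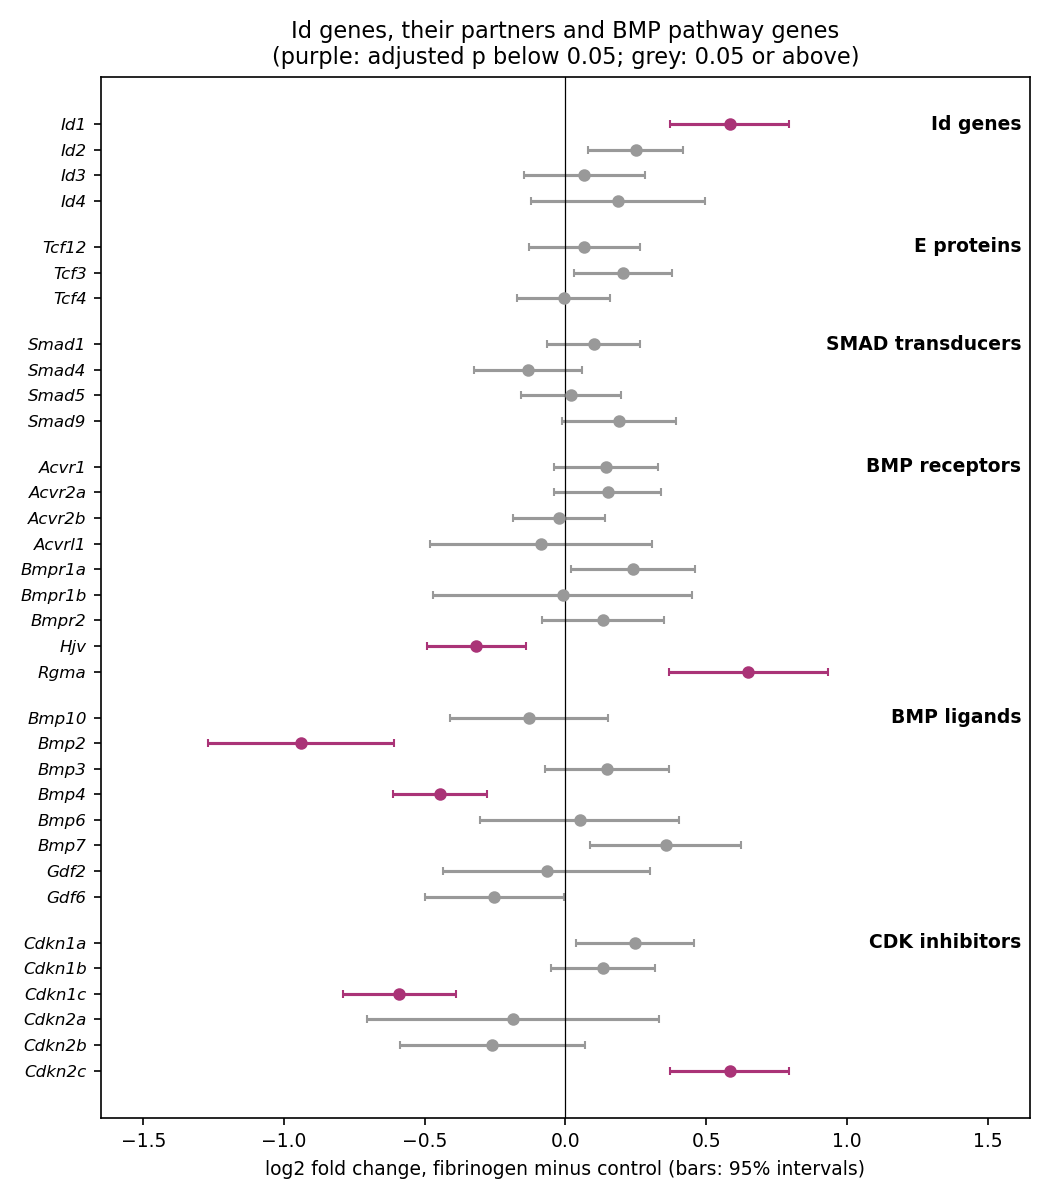
Log2 fold change (fibrinogen minus control) with 95% intervals for the 4 Id genes, the E proteins, SMAD transducers, BMP receptors and co-receptors, BMP ligands and CDK inhibitors, with genes past an adjusted p of 0.05 in purple. Id1, Rgma and Cdkn2c stand to the right and Bmp2, Bmp4, Hjv and Cdkn1c to the left, while no E protein or SMAD transducer is called.

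Id1 was set beside other genes that BMP-SMAD signaling is known to induce, and beside transcription factors known to act on Id genes. Of 16 such targets other than the Id genes, 2 rose and none fell (median 0.14), where 4.16% of all genes were called higher, and 12 had a control mean below the median probe. Hes1, a repressor that Notch also induces, was at 4.89, 4.94 and 4.79 on control and 6.02, 6.03 and 5.75 on fibrinogen arrays 1 to 3. Hey1, a related repressor, was at 6.15, 5.83 and 5.72 against 6.59, 6.44 and 6.50. Hey1 stayed past the threshold without control 1, but not when any of the other arrays was removed (adjusted p of up to 0.110), which leaves 1 of the 16 called. Hes1 and Hey1 were also the genes that rose among 9 Hes and Hey repressors (median 0.05), where 4.16% of all genes were called higher. Of these 9, 6 had a control mean below the median probe. Hes6 was at -0.29 and did not pass (adjusted p = 0.0848 in limma), although its groups did not overlap. Of 13 other regulators of Id transcription, 1 rose and 1 fell, where 7.16% of all genes were called. Egr1, a growth-factor-induced activator, was at 7.59, 7.69 and 7.79 on control and 8.55, 8.46 and 8.36 on fibrinogen arrays 1 to 3 (adjusted p = 0.00477 in limma). Atf3, a stress-induced factor that represses Id1 in TGF-beta-treated epithelial cells, was at 6.87, 6.80 and 6.74 against 6.24, 6.09 and 6.20 (adjusted p = 0.00564 in limma).

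Oligodendrocyte differentiation genes, the programme that Id proteins are known to restrain, had 9 of 14 measured members lower and none higher (median -0.46, all 14 negative), where 3.00% of all genes were called lower. The list shares Sox10 and Gpr17, at -0.09 and -0.14 and not called, with the OPC markers below. With any one array left out 6 or 7 members stayed called lower: Mbp and Cnp lost the call whichever array was removed, and Cldn11 without fibrinogen 1. Fa2h (which hydroxylates myelin fatty acids) went from 9.58, 9.53 and 9.47 on control to 8.66, 8.60 and 8.62 on fibrinogen arrays 1 to 3. Ugt8 (which makes galactosylceramide) went from 11.04, 11.02 and 11.05 to 10.05, 10.33 and 10.30. Enpp6 (a choline phosphodiesterase) fell by 0.79, and Aspa (aspartoacylase, which breaks down N-acetylaspartate) fell by 0.94. Whether these changes depend on Id1 was not tested.

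The cell type label was checked against markers. The OPC markers Pdgfra, Cspg4, Olig1, Sox10, Gpr17, Ptprz1 and C1ql1 all had control means above the median probe. So did all 8 measured astrocyte markers and all 8 neuron markers, so this level does not tell OPCs from those cell types. Of the 7 OPC markers, 4 were called higher and none lower with fibrinogen, where 4.16% of all genes were called higher. Astrocytes express Id genes too, and 4 of 8 measured astrocyte markers (Gfap, Slc1a2, Slc1a3 and Fgfr3) rose, against the same 4.16%, while Aqp4, Gja1, S100b and Aldoc did not pass. The mean log2 level of the astrocyte list ran from 7.97 to 8.04 on control and from 8.30 to 8.35 on fibrinogen arrays. In bulk samples more cells of a type and more RNA per cell cannot be told apart, and the part of astrocyte RNA in the rise of Id1 was not tested. Endothelial cells also express Id1 and Id3: all 5 measured endothelial markers had control means below the median probe and none was called in limma (0 at an unadjusted p under 0.05), with a mean level of 3.8 to 4.05 on control and 3.71 to 4.01 on fibrinogen arrays. None of 5 pericyte and fibroblast markers and none of 4 Schwann cell markers was called in limma (0 and 2 at an unadjusted p under 0.05). Those 2 were Pmp22 and Egr2, at 0.37 and 0.38 (adjusted p = 0.0544 and 0.181), while Prx and Ngfr were at -0.12 and -0.07. With 7.16% of all genes called in either direction, lists this short can lack calls. The absence of calls here and among the endothelial markers is therefore no result about these cell types. Of 8 microglia markers Itgam fell and 7 did not pass, where 3.00% of all genes were called lower. Of 8 neuron markers 2 rose and 1 fell, where 7.16% of all genes were called in either direction. These were Elavl4 and Stmn2, with log2 fold changes of 0.90 and 0.38, and Syt1, at -1.16.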

How the data were processed

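RNA from 6 OPC samples was amplified with a NuGEN whole-transcriptome kit, labelled with biotin and hybridised to Affymetrix arrays, per the labels' protocols. The authors deposited log2 expression values for each probe set. The submitters' processing notes list RMA and limma, with no version or setting, and the sources used here give no genome build for the array. Values were present for 23631 of 26312 probe rows. The array medians over these probes were 5.78, 5.80 and 5.80 on control arrays 1 to 3 and 5.84 on each fibrinogen array. Over the 13355 genes tested, the median log2 fold change was 0.003 before any centring on these medians. RMA shrinks changes of dim probes, and detection is not recorded.

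Probe sets with 1 gene symbol in the platform's annotation (14083) gave 13355 genes, the probe of highest mean standing for its gene. The 2 groups were compared with limma 3.58.1 in R 4.3.3 (lmFit, then eBayes; two-sided; no covariate and no brightness filter). P-values were adjusted by Benjamini-Hochberg over every gene, with a threshold of 0.05. The median SE of a log2 fold change was 0.10, and the number of arrays limits the precision. A gene list is described by counts and its median, with no test of the list. The members and lists were chosen with earlier results of these data known. The Id genes and E proteins were named whatever their values. Of a list, called members were named up to 4 by smallest p, and otherwise the 2 of smallest p; for each Id gene the 3 nearest profiles were named. List members that lacked a valued single-symbol probe set were not used here. The limma step was checked on simulated arrays. Alternatives covered normalization, dim-probe filters, probe choice, the variance model, a replicate block and each array left out.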

Additional observations from a re-analysis of the deposited data

How the results depend on the processing

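With 3 arrays a group, precision is limited. The fit called 555 genes higher and 401 lower. With trend and robust variance it called 928 and 689, with the unmoderated test 268 and 232, and without genes below the median brightness 829 and 627. Leaving out 1 array gave 208 to 379 higher and 150 to 239 lower; these fits use fewer arrays. The log2 fold change of Id1 was 0.58 with the unmoderated test, where its call was lost, and 0.51 to 0.62 with any one array left out. That of Id2 was 0.25 in the 3 settings that brought it past the threshold: both filters on dim genes, which test fewer genes, and trend and robust variance. With any one array left out Id3 ranged from 0.003 to 0.12 and Id4 from 0.06 to 0.30. No Id change reversed under the alternatives run, and no pair difference moved by more than its spread between replicates; Id2 minus Id4 changed sign without control 3 (-0.04).

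The replicate numbers of the titles did not pair the arrays: deviations of same-numbered arrays correlated at 0.02, -0.14 and -0.07 over all genes, and no array correlated best with its own number. With the replicate block 199 genes were called higher and 144 lower, and Id1 stayed past the threshold (adjusted p = 0.0427 in limma). The block ended the calls of Olig1 (0.0587), Cav1 (0.0512), Hey1 (0.0523), Bmp4 (0.0707), Rgma (0.0671), Hjv (0.132), Cldn11 (0.0560), Cnp (0.0893) and Mbp (0.137), given as adjusted p.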
